A study of Mus musculus with 2 samples.

Results

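The miR-30 family comprises 7 microRNA (miRNA) genes of the mouse: Mir30a, Mir30b, Mir30c-1, Mir30c-2, Mir30d, Mir30e and Mir30f. They were taken by symbol from the 2202 miRNA genes counted in each library, and all 7 were found in the GENCODE M21 annotation. The libraries were made from total RNA of adrenal glands of male B6CASTF1/J mice at 10 days of age, with a size range of under 30 bases per the labels. Mice of this strain are F1 hybrids of C57BL/6 and CAST/EiJ, and all samples share that genotype, sex and age. The series holds 1 group of 2 libraries, numbered as biological replicates 1 and 2, so no treatment or genotype can be compared. The labels number the animals differently and give them a shared donor record, and they do not say whether glands were pooled. Values below therefore describe levels in the gland and how the 2 libraries differ.

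A miRNA is cut from a hairpin precursor as a short RNA that guides Argonaute proteins to messenger RNAs, mainly through its seed, the bases from position 2 to 8. Members of a family share a seed and so can pair with the same sites. The miR-30 family is known from kidney epithelium and podocytes, heart muscle and bone cells, where reported targets include Snai1, a driver of epithelial-mesenchymal transition, and the autophagy factor Beclin 1. Of its genes, 6 lie in 3 genomic clusters, each a pair of hairpins on 1 strand, and Mir30f lies opposite Mir30e.

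The mature sequences show why the members are grouped and where reads of different members can be told apart. They are RefSeq sequences of build GRCm38.p6, found for 5 of the 7 genes (Mir30a, Mir30c-1, Mir30c-2, Mir30e and Mir30f), and the seed is in capitals.
miR-30a-5p: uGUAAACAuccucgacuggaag
miR-30e-5p: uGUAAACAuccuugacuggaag
miR-30c-5p: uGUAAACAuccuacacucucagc
miR-384-5p: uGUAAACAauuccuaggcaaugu
miR-30a-3p: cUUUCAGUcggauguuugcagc
miR-30e-3p: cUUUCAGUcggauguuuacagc
miR-30c-1-3p: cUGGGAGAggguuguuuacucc
miR-30c-2-3p: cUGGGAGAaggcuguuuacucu
miR-30f: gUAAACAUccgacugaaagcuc

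The 5p arms of Mir30a, Mir30c-1, Mir30c-2 and Mir30e carried the seed GUAAACA, whose reverse complement in a target is UGUUUAC. Among 1738 mature sequences in the table, 1 gene outside the family had this seed, Mir384, whose 5p arm departs from miR-30 after the seed. The 3p arms split into UUUCAGU for Mir30a and Mir30e and UGGGAGA for Mir30c-1 and Mir30c-2, and the latter was shared with Mir6958. The sequence of miR-30f begins with the family's 5p seed, so its own seed, UAAACAU, is shifted by 1 base and was found in no other gene of the table. It lies on the strand opposite Mir30e and overlaps the position of miR-30e-3p by 19 bases.

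Counting positions from 1 at the 5′ end of the miR-30a arm, miR-30e-5p differs from miR-30a-5p by C13U and miR-30e-3p from miR-30a-3p by G18A. Full-length reads of either arm can therefore be assigned to Mir30a or Mir30e by 1 base. The longest run shared by these hairpins is 18 bases. Mir30c-1 and Mir30c-2 instead share the whole of miR-30c-5p inside a run of 28 bases, uguaaacauccuacacucucagcuguga, so a read within that run maps to both loci. Reads that map to several places are held in a separate row of the files and enter no gene count. They made up 27.5% of replicate 1 and 25.9% of replicate 2. How many of them were miR-30c-5p was not tested, and the counts of Mir30c-1 and Mir30c-2 are uncertain for that reason. For Mir30b and Mir30d no sequence was found, so stretches that they share with other members could not be examined.

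In the mm10 annotation Mir30a (ENSMUSG00000065405.3) lies on the forward strand of chromosome 1 from 23272269 to 23272339, in no other annotated gene. Mir30c-2 (ENSMUSG00000065567.1) follows 19361 bases downstream, from 23291701 to 23291784, in an exon of the long noncoding RNA Gm27028. On the reverse strand of chromosome 15, Mir30b (ENSMUSG00000065476.2) lies from 68337415 to 68337510 in an exon of Gm26621. Mir30d (ENSMUSG00000065437.1) lies from 68341208 to 68341289, 3697 bases away, in exons of the long noncoding RNA Gm20732 and of Gm37296. The third cluster lies on the reverse strand of chromosome 4 in introns of all 6 overlapping transcripts of Nfyc, which encodes a subunit of the transcription factor NF-Y. It holds Mir30c-1 (ENSMUSG00000065490.1) from 120769534 to 120769622 and, 2983 bases away, Mir30e (ENSMUSG00000065409.1) from 120772606 to 120772697. Mir30f (ENSMUSG00000105585.1) has the same start and end as Mir30e on the forward strand.

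Own-strand counts over all miRNA genes came to 2843734 in replicate 1 and 3080062 in replicate 2, and levels are CPM, counts scaled to a total of 1000000 in each library. Counts are per hairpin, with the counted reads of both arms summed, and were not divided by length. Reads within the run shared by Mir30c-1 and Mir30c-2 enter neither count, so both counts may be too low. By these counts, Mir30e, Mir30d and Mir30a were the high members and Mir30c-2, Mir30b and Mir30c-1 the low ones. The 3 high members held 97.7% of the family's counts in replicate 1 and 97.1% in replicate 2. The lowest value of a high member in either library, 4326 CPM for Mir30e in replicate 2, was still 15.6-fold above the highest value of a low member, 278 CPM for Mir30c-2. How far this gap and these shares come from reads left out of Mir30c-1 and Mir30c-2 was not tested.

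Mir30e had 44056 counts or 15492 CPM in replicate 1 and 13323 counts or 4326 CPM in replicate 2, a mean of 9909 ± 7896 CPM (SD, n = 2). It stood at rank 20 of all miRNA genes in replicate 1 and at rank 42 in replicate 2. Mir30d had 17443 counts or 6134 CPM and 33753 counts or 10958 CPM, a mean of 8546 ± 3412 CPM (SD, n = 2), at rank 33 and then 23. Mir30a had 19194 counts or 6750 CPM and 22029 counts or 7152 CPM, a mean of 6951 ± 285 CPM (SD, n = 2), and was at rank 31 in both libraries. The means of these 3 genes differed by less than the SD of Mir30e, so their order is not resolved. It turned between the libraries: Mir30e was 2.53-fold above Mir30d in replicate 1, and Mir30d was 2.53-fold above Mir30e in replicate 2.

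Among the low members, Mir30c-2 had 598 and 855 counts in replicates 1 and 2, or 210.3 and 278 CPM, with a mean of 244 ± 47.6 CPM (SD, n = 2). Mir30b had 696 and 572 counts, or 245 and 186 CPM, with a mean of 215 ± 41.7 CPM. Mir30c-1 had 574 and 610 counts, or 202 and 198 CPM, with a mean of 199.9 ± 2.69 CPM. These means lie within the SD of Mir30c-2 of each other, so this order is not resolved either, and divided by hairpin length Mir30c-1 comes above Mir30b. All 3 were above the median of 39.3 CPM for miRNA genes with a mean of at least 1 CPM. Between Mir30a and Mir30c-2, neighbours in the order of means, the level dropped 28.5-fold. This fold may be too large, as Mir30c-2 leaves out reads shared with Mir30c-1.

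**Figure D1:**
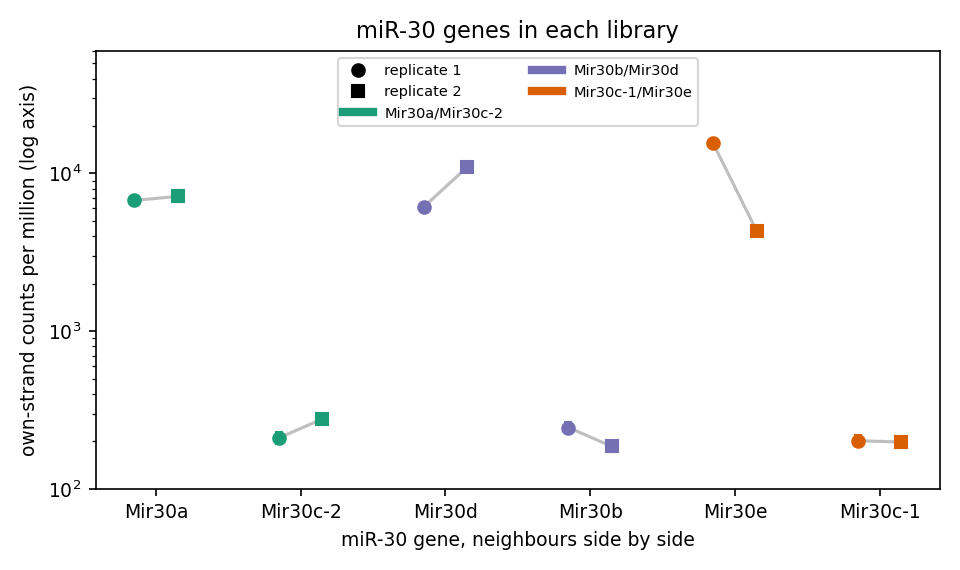
Own-strand CPM (log axis) of the 6 miR-30 genes with counts, with circles for replicate 1, squares for replicate 2 and colours for the genomic cluster. Bars, mostly hidden by the symbols, are exact 95% binomial intervals for counting error. By these counts each cluster has a high and a low gene, with reads shared by Mir30c-1 and Mir30c-2 left out. Mir30e goes from 15492 to 4326 CPM while Mir30d goes from 6134 to 10958 CPM.

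Mir30f had 0 own-strand counts in both libraries, and the limit set by 3 counts was 1.05 CPM for replicate 1 and 0.974 CPM for replicate 2, which covers counting error only. On the opposite strand it was listed with 44056 and 13323 counts, the same numbers that Mir30e had on its own strand, because both genes cover the same bases. The other 6 members had 0 opposite-strand counts. Without regard to strand, reads over both genes are ambiguous, and Mir30e and Mir30f were listed at 0 in both libraries. The other 5 members had the same count with and without strand.

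The family as a whole held 2.90% of own-strand counts in replicate 1 (exact 95% binomial interval 2.88 to 2.92) and 2.31% in replicate 2 (2.29 to 2.33), a mean of 2.61% ± 0.42 (SD, n = 2). In replicate 1 the chromosome 4 cluster of Mir30c-1 and Mir30e held 54.1% of the family's counts (53.7 to 54.4), the chromosome 1 cluster of Mir30a and Mir30c-2 24.0% (23.7 to 24.3) and the chromosome 15 cluster of Mir30b and Mir30d 22.0% (21.7 to 22.3). In replicate 2 the chromosome 15 cluster held the most, 48.2% (47.9 to 48.6), followed by chromosome 1 with 32.2% (31.8 to 32.5) and chromosome 4 with 19.6% (19.3 to 19.9). The leading cluster thus differed between the libraries by more than counting error. Against the spread between libraries the means of 36.8% ± 24.4, 35.1% ± 18.6 and 28.1% ± 5.79 (SD, n = 2) were not separated. No test of the order of the clusters was run over the 2 libraries. Reads shared by Mir30c-1 and Mir30c-2 are in none of these shares.

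**Figure D2:**
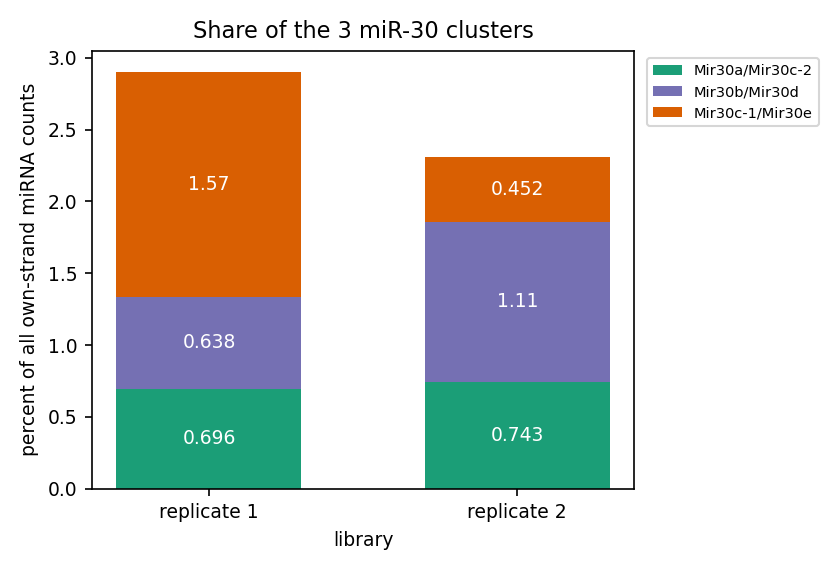
Share of all own-strand miRNA counts (percent, stacked bars from 0) held by each miR-30 cluster in each library. The chromosome 4 cluster (orange) goes from 1.57% to 0.452%, the chromosome 15 cluster (purple) from 0.638% to 1.11%, and the chromosome 1 cluster (green) lies at 0.696% and 0.743%.

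The libraries were compared gene by gene with an exact two-sided binomial test on own-strand counts, adjusted by the Benjamini-Hochberg method over 444 genes with at least 10 counts. This compares 2 libraries against counting error and says nothing about a condition. Of the 7 members, 6 had enough counts and 5 passed the test, against a background of 59.0% of all tested genes. Among 130 genes with at least 1000 counts in both libraries 91.5% passed, so passing is common at such depth. In replicate 2, 3 members were higher (background 28.6%) and 2 were lower (background 30.4%). The median log2 ratio of the 6 members was 0.03, and that of all tested genes was 0.07.

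Mir30e was lower in replicate 2 by a log2 ratio of -1.84 ± 0.01 (counting SE), or 3.58-fold. It was the only member that passed the test with at least a 2-fold difference, a rule that 17.3% of tested genes met. Of 444 tested genes, 10 had a ratio at or below that of Mir30e, itself included. Among the 130 genes with at least 1000 counts in both libraries, a minimum chosen after the values were seen, Mir30e had the lowest ratio, followed by Mir15a at -1.74. Mir30d had a log2 ratio of 0.84 ± 0.01, 1.79-fold higher in replicate 2, and 68 tested genes had a ratio at or above it.

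The other members differed less. Mir30c-2 was higher in replicate 2, with a log2 ratio of 0.40 ± 0.08 (adjusted p = 4.6e-07, exact binomial test). Mir30b was lower by a log2 ratio of -0.40 ± 0.08 (adjusted p = 2.6e-06, exact binomial test). Mir30a had a log2 ratio of 0.08 ± 0.01 and an adjusted p of 1.3e-08 in the exact binomial test. That call was lost with TMM factors, where the ratio was 0.01 (adjusted p = 0.51, exact binomial test), and with DESeq2 size factors. It was also lost with counts and totals without strand, at a ratio of 0.008 (adjusted p = 0.66, exact binomial test). With Mir122 left out of the totals the ratio was instead 0.19 (adjusted p = 1.5e-39, exact binomial test), so its size depends on the scaling. Mir30c-1 did not pass, with a log2 ratio of -0.03 ± 0.08 (adjusted p = 0.82, exact binomial test).

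None of these differences passed once the spread between libraries was allowed for. With edgeR's exact negative binomial test, at a common biological coefficient of variation of 0.394 estimated from the same 2 libraries, 0 of 6 members passed. The background was 0.450% of tested genes, or 2 genes. Mir30e had an unadjusted p of 0.0242 and an adjusted p of 0.717 in that exact test, and Mir30d had 0.354 and 1. At an unadjusted p under 0.05, 1 of 6 members was counted, Mir30e, against 5.41% of tested genes. Because the spread comes from the libraries being compared, this test calls few genes by construction.

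**Figure D3:**
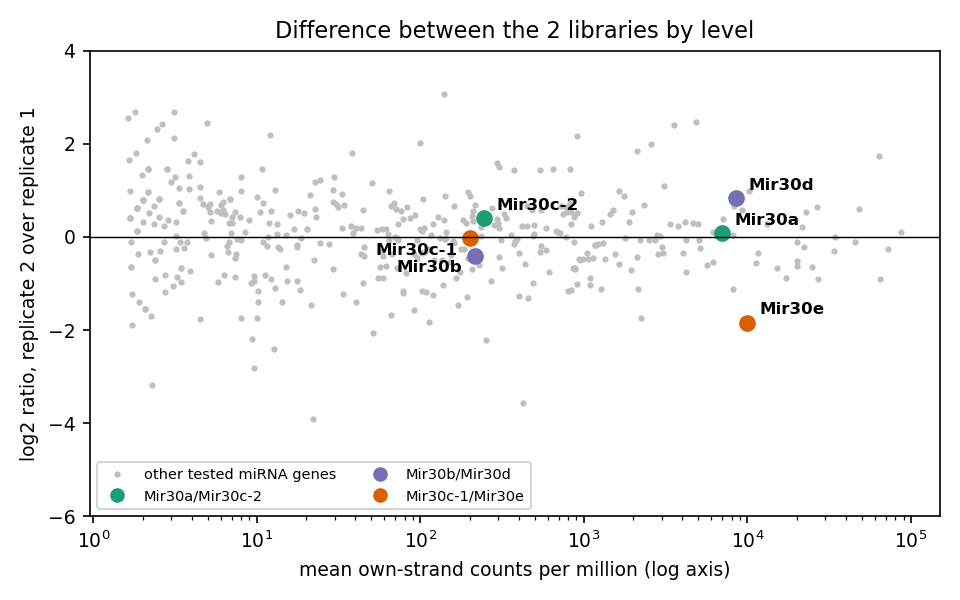
Log2 ratio of replicate 2 over replicate 1 against the mean own-strand level (log axis) for 444 tested miRNA genes, with the 6 miR-30 genes coloured by cluster. Mir30e lies at -1.84 among genes of similar level that mostly lie nearer to 0, and Mir30d lies at 0.84.

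Genes of a cluster did not keep a fixed ratio, and this comparison within a library does not depend on the scaling. Mir30e was 76.7-fold above its neighbour Mir30c-1 in replicate 1 and 21.8-fold above it in replicate 2. Mir30c-1 stayed near 200 CPM in both libraries while Mir30e, also in introns of Nfyc, was 3.58-fold lower in replicate 2. Mir30d was 25.0-fold above Mir30b in replicate 1 and 59.0-fold above it in replicate 2, with the 2 neighbours going in opposite directions. Mir30a was 32.1-fold above Mir30c-2 in replicate 1 and 25.8-fold above it in replicate 2. Reads shared by Mir30c-1 and Mir30c-2 are left out of both counts, so the folds of Mir30e and Mir30a over them may be too large. Whether the folds of Mir30d over Mir30b are touched in the same way was not tested.

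The log2 ratios of the neighbours differed by 1.81 for Mir30c-1 and Mir30e, by 1.24 for Mir30b and Mir30d, and by 0.32 for Mir30a and Mir30c-2. As a background, 87 other pairs of adjacent miRNA genes on 1 strand, at most 20000 bases apart and with at least 100 counts in each library, had a median difference of 0.62. Of these 87, 4 pairs differed by as much as Mir30c-1 and Mir30e, and 15 by as much as Mir30b and Mir30d. Both these miR-30 pairs therefore lie in the upper part of the range, and the Mir30a pair lies below its median. Mir30c-1 and Mir30c-2 leave out reads shared between them, so the values of their pairs are uncertain. Reads that Mir30b or Mir30d may share with other loci were not examined, so the value of that pair has an unknown limit too. The background of 87 pairs was chosen after the members' values were seen. Many of its pairs are links of 1 chain through the imprinted Dlk1-Dio3 region, and a gene can be in more than 1 pair, so the pairs are not independent. Genes with fewer counts were left out before neighbours were taken.

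**Figure D4:**
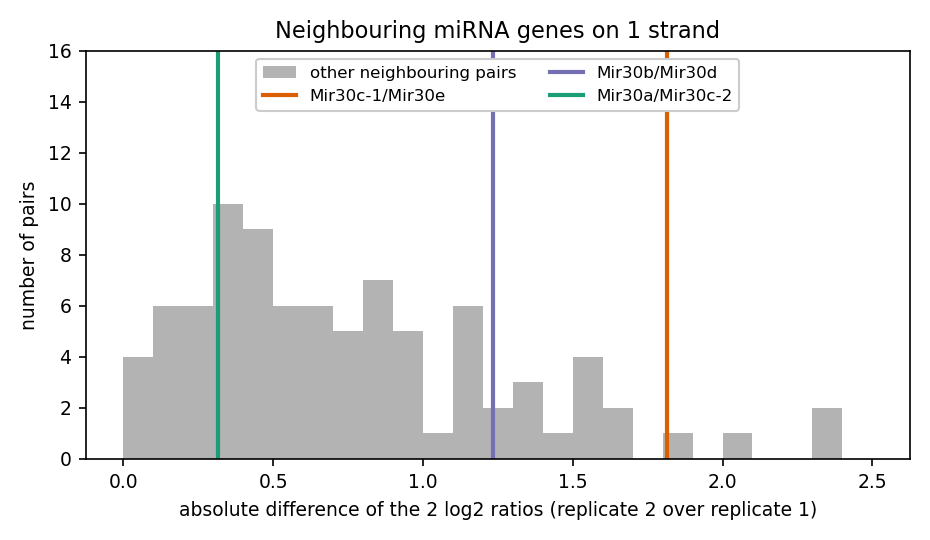
Histogram of the absolute difference between the log2 ratios (replicate 2 over replicate 1) of 87 other neighbouring miRNA gene pairs, with the 3 miR-30 pairs as lines. The lines lie at 0.32, 1.24 and 1.81, and the other pairs have a median of 0.62.

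Of the genes that share a miR-30 seed, Mir384, known mainly from brain, had 59 counts in replicate 1 and 24 in replicate 2, or 20.7 and 7.79 CPM. It was lower in replicate 2 by a log2 ratio of -1.40 (adjusted p = 5.8e-05, exact binomial test over all tested genes). At a mean of 14.3 CPM it was below every miR-30 member with counts. Mir6958 had 1 count in each library.

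The genes outside the family nearest to each member in level over the 2 libraries were found by distance in log2(CPM + 1). Mir191 was the nearest to Mir30a, at a distance of 0.04, with 6760 and 7357 CPM. Mir379, from the imprinted Dlk1-Dio3 region, was the nearest to Mir30d at 0.13, with 6418 and 10130 CPM. Mir130a was the nearest to Mir30e but lay farther away, at 0.53, with 11200 and 5126 CPM. The low members had near matches in Mir666 for Mir30c-2 (0.05), Mir323 for Mir30b (0.07) and Mir125b-2 for Mir30c-1 (0.08). With 2 libraries such matches describe levels only.

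The family was set beside 3 other families spread over several loci, miR-26, miR-181 and miR-29, and among these 4 it held the largest share of own-strand counts in both libraries. Its share in replicate 2 was below that of miR-26 in replicate 1, 2.35%, so the values of these families overlap, while miR-181 and miR-29 lay far lower. Reads that map to several places enter none of these sums. How many each family lost was not tested, so the order holds only for the reads counted. The miR-26 family, in introns of the Ctdsp phosphatase genes, held 2.01% ± 0.48 (SD, n = 2), the miR-181 family, known from lymphocytes and brain, 0.421% ± 0.065, and the miR-29 family, repressors of collagen genes, 0.118% ± 0.030. All 4 sums were lower in replicate 2, with log2 ratios of -0.33 for miR-30, -0.49 for miR-26, -0.32 for miR-181 and -0.52 for miR-29. The sum of miR-30 owed its direction to Mir30e. Without Mir30e, a choice made after the data were examined, it went from 1.35% to 1.88%. In the miR-26 family 1 of 3 members passed the test as higher in replicate 2 and 1 as lower, in miR-181 1 and 3 of 6, and in miR-29 0 and 2 of 4. Over all tested genes these shares were 28.6% and 30.4%, and so few members do not set a family apart from them.

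**Figure D5:**
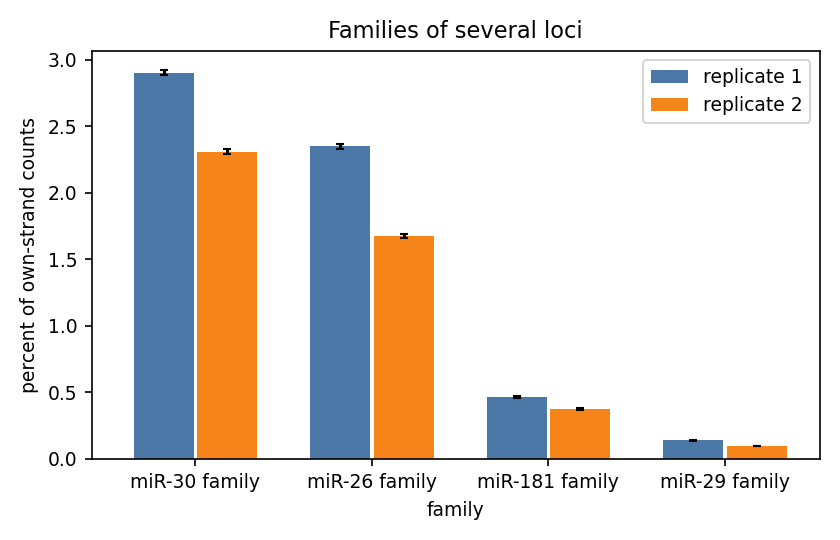
Share of own-strand miRNA counts (percent, bars from 0) held by the miR-30, miR-26, miR-181 and miR-29 families in each library, with exact 95% binomial intervals. The miR-30 family has 2.90% and 2.31%, and the miR-29 family is the lowest with 0.139% and 0.0967%.

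Markers of the cell types that the gland or its surroundings could hold also differed between the libraries, and a list's sum and its members often went different ways. Counts of members below are of those that passed the exact binomial test, against 28.6% of tested genes higher and 30.4% lower in replicate 2. All 4 members of the neuroendocrine list of chromaffin cells were detected at 1 CPM or above in each library. Its sum, 39914 and 37795 CPM, was carried by Mir375, with 34144 and 34383 CPM, while Mir7-1, Mir7-2 and Mir7b were lower in replicate 2 (log2 ratios -0.67, -1.19 and -0.76). The cortex and hormone response list (4 of 4 detected) had 31915 and 30254 CPM in sum. Of its members, Mir21a (log2 ratio 0.98) and Mir132 (0.53) were higher and Mir335 (-0.63) and Mir212, from 59.1 to 29.5 CPM, lower.

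Among markers lower in replicate 2 were the endothelial Mir126a, from 84263 to 45250 CPM, and the erythroid list (3 of 3 detected), from 719.8 to 322 CPM. In that list Mir451a and Mir144 were lower and Mir486 was higher. Among those higher were the hepatocyte marker Mir122, from 29424 to 97850 CPM, and the striated muscle list (4 of 9 detected, Mir133a-2 at 0), from 929 to 3337 CPM. Its 4 tested members were not the 4 detected ones: Mir1a-2 was detected but not tested, and Mir133b was tested but below 1 CPM in replicate 1. Of those tested, 3 were higher (Mir206, Mir499 and Mir133b) and 0 lower, while Mir208b did not pass. Mir133b, with 2 and 14 counts, reached the minimum for testing through replicate 2, and Mir499 had 12 and 61 counts. Most of the sum was Mir206, which alone went from 919 to 3305 CPM. The kidney and epithelial list, from cells known for miR-30, had 11 of 11 members detected. Of these, 7 were higher in replicate 2, led by Mir200b (2.02), and 1 was lower, Mir203, with a median log2 ratio of 0.72. Its sum was 1622 and 1670 CPM, and its largest member in both libraries was Mir203, which went from 1139 to 824 CPM.

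Neurons had 3 of 9 members detected, with Mir124a-1, Mir124a-3, Mir9-1 and Mir9-2 at 0, and 891 and 550.3 CPM in sum, with 0 of the 3 higher and 2 lower. Leukocytes (4 of 4 detected) had 1044 and 1547 CPM, with Mir150 and Mir155 higher. Of these, Mir150 went from 292 to 786 CPM. Smooth muscle and fibroblasts (4 of 5 detected, Mir199a-1 at 0) had 40292 and 34060 CPM, with Mir143 lower and Mir145a and Mir214 higher. Reads that map to several places enter no count, so 0 at loci such as Mir124a-1, Mir9-1, Mir133a-2 or Mir199a-1 need not mean absence. Whether such reads came from these genes was not tested. Unmapped reads were 26.4% of replicate 1 and 32.0% of replicate 2. The part of any of these in the miR-30 differences was not tested, and in whole tissue a different number of cells and a different level per cell cannot be told apart.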

How the data were processed

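For each of 2 libraries the authors deposited unnormalised read counts of miRNA genes, on mm10 and GENCODE M21 per the deposited file descriptions. Which aligner and counter were used is not given in the sources used here. The files hold 3 count columns, read from their values as without strand, own strand and opposite strand. The own-strand column was the main count, and all 2202 identifiers matched the annotation. Rows for unmapped, multiply mapped, unannotated and ambiguous reads stayed out of totals. The replicates come from 1 group, so p-values measure only the spread or counting error between these libraries.

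CPM was computed over all genes. Log2 ratios added 0.5 counts. The exact binomial test was adjusted over all genes with at least 10 counts and a threshold of 0.05. It was checked on simulated counts drawn with counting error alone, so the check says nothing about spread between libraries. Intervals are exact (Clopper-Pearson, 95%). No molecular identifiers are recorded, so they cover counting error only.

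Members, lists and tests were chosen with earlier results of these data known. Named were all members, the nearest gene in level to each member with at least 100 counts per library, genes sharing a seed, and the miR-26, miR-29 and miR-181 families. Alternatives were other scalings, filters, pseudocounts, strand columns, tests and members left out. Tests ran in scipy 1.17.1 under Python 3.11.15, with tables in pandas 2.3.3. TMM factors and the negative binomial test came from edgeR 4.0.16, size factors from DESeq2 1.42.0, both under R 4.3.3.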

Additional observations from a re-analysis of the deposited data

Results flagged for a closer look

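Counts appear in data outside the own-strand column. Mir30f had 44056 counts in replicate 1 and 13323 in replicate 2 on its opposite strand. These equal the own-strand counts of Mir30e, whose strand that is, so they are not counts of the strand of Mir30f. Reads that mapped to several places, 2065487 in replicate 1 and 2308583 in replicate 2, entered no gene count, and the number among them that came from miR-30c-5p was not tested.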

How the results depend on the processing

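Mir30e, Mir30d, Mir30b and Mir30c-2 kept their direction under each alternative that gave a value, and their binomial call under other scalings, filters, pseudocounts and without Mir122. Without strand, Mir30e gave no value, the call of Mir30a was lost, and 3 members passed in place of 5. The family then held 1.98% in place of 2.61%, and its log2 ratio turned to 0.40 from -0.33. The clusters of chromosomes 1, 15 and 4 held 45.5%, 53.2% and 1.27% of its counts, so that chromosome 15 led in place of chromosome 4. The turn follows from the loss of Mir30e: with Mir30e left out of own-strand counts the ratio was 0.47 and the share 1.62%. The family ratio was -0.40 with TMM factors, -0.40 with DESeq2 size factors and -0.22 with Mir122 left out of totals, where Mir30c-1 turned to 0.078, uncalled in both. The negative binomial test called 0 members and 2 genes, with 24 at an unadjusted p under 0.05, against 5 members and 262 genes by the binomial test. A share from 1 replicate ranged from 2.31% to 2.90%. Each ratio rests on 1 library against 1, and leaving out a replicate gives none. No paired analysis was possible because the series has 1 group.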
